A study of Glycine max with 12 samples.

Results

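The genes described here are 6 soybean homologs of 3 Arabidopsis regulators of seed maturation, chosen by locus identifier from 66210 gene models with counts. They form 3 pairs: Glyma07g39820 and Glyma17g00950 for LEAFY COTYLEDON1 (LEC1), Glyma08g47240 and Glyma18g38490 for ABSCISIC ACID INSENSITIVE3 (ABI3), and Glyma16g05480 and Glyma19g27340 for FUSCA3 (FUS3). These are published locus assignments, and no identifier in the files matched the RefSeq gene table (assembly Glycine_max_v4.0). That table places genes with the symbols LEC1-A, LEC1-B, ABI3-1 and ABI3-2 on chromosomes 7, 17, 8 and 18, the chromosome numbers in the identifiers of the first 4 members, and holds no FUS3 symbol. All 6 members had counts in at least 1 of the count libraries. Of the 44202 gene models listed for mid or late maturation 5 were members, and Glyma19g27340 was not listed.

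LEC1 is a subunit of a CCAAT-binding transcription factor, while ABI3 and FUS3 carry the plant-specific B3 DNA-binding domain. In Arabidopsis these regulators act in a network that turns on storage protein and oil genes in the embryo, and mutants lose parts of the maturation programme. ABI3 is also needed there for the response of seeds to abscisic acid and for desiccation tolerance. Soybean is an ancient polyploid, and many of its genes remain as pairs of duplicated copies, called homeologs.

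Polyadenylated RNA of cultivar Williams 82 was sequenced in 12 libraries, with 1 library for each stage or organ. The seed libraries came from whole seeds with globular embryos (0.8 to 1.1 mm long), heart embryos (2 to 2.5 mm), cotyledon-stage embryos (3 to 3.9 mm) and early-maturation embryos (6 to 7 mm), from mid-maturation seeds (1.1 to 1.3 cm, 150 to 250 mg) and late-maturation seeds (1.2 to 1.5 cm, 230 to 350 mg), and from dry seeds of about 200 mg. The other organs were young trifoliate leaves, roots without nodules and stem internodes of plants 3 to 4 months old, unopened floral buds, and seedlings 6 days after imbibition (7 to 10 cm). No genotype or treatment differed between the groups, and a whole seed holds seed coat and endosperm beside the embryo. In such bulk samples fewer cells of a type and less RNA per cell cannot be told apart.

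The 10 count libraries held 10296612 (stem) to 45726019 (globular) counts. The mid- and late-maturation libraries were deposited as RPKM, which divides the reads of a gene by its length and by the library total, and differ from the others in gene models, processing tools and the sequencers that the labels name, so they are treated as a separate batch. As a check of the tissue labels, the summed level of 10 storage protein genes was 30268 CPM (counts of a gene per 1000000 counts of its library, after TMM scaling, which sets the bulk of genes equal between libraries) at early maturation and 26175 CPM in dry seed, where 9 of the 10 had counts. Their sum was 33.5 CPM in seedling, 17.9 in globular, 1.76 in heart and 19.6 in cotyledon seed, and at most 0.187 CPM in leaf, root, stem and floral bud. Mid and late maturation, given in RPKM, were not part of this check. No group had a second library. Every difference below is between single libraries, no p-value is given, and each interval is an exact 95% interval that covers counting error alone.

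**Figure D1:**
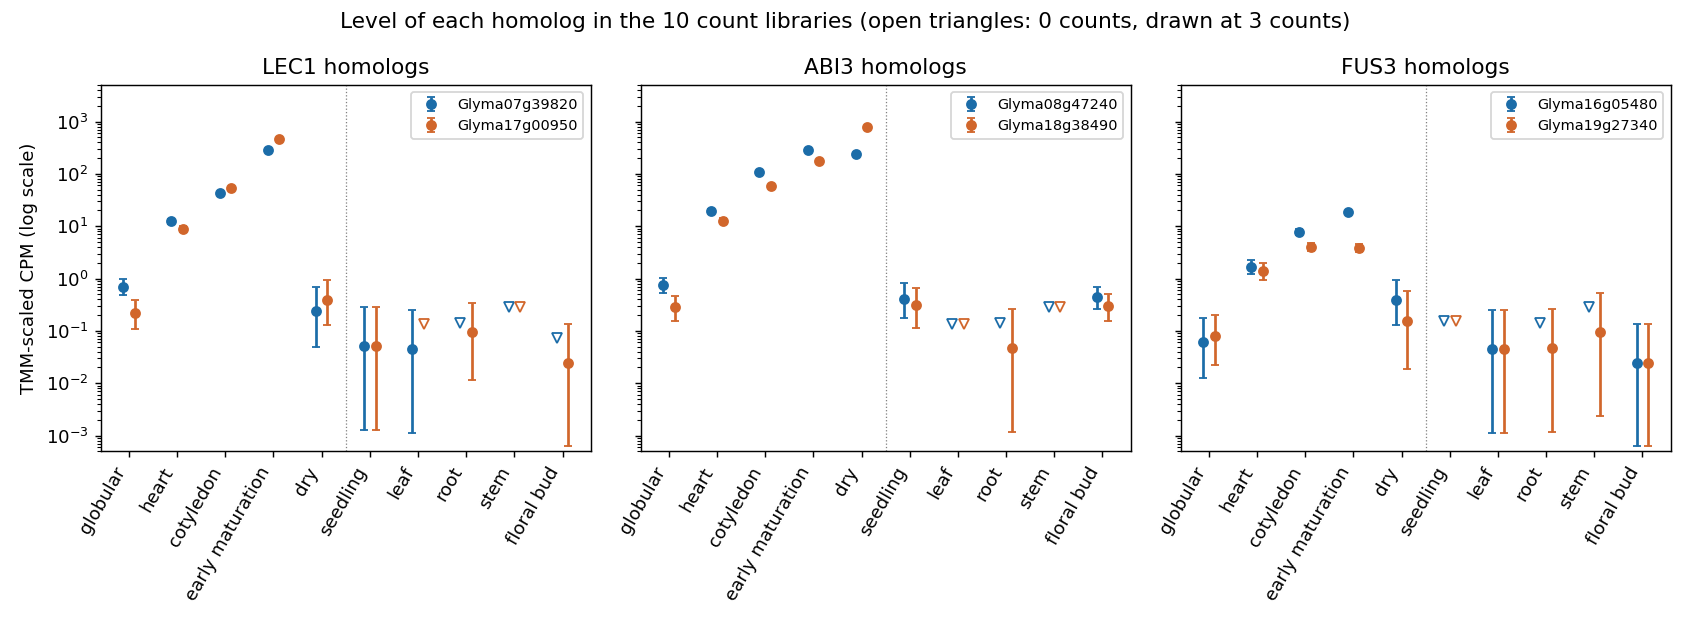
Level of each homolog in the 10 count libraries, as TMM-scaled CPM on a log axis, with exact 95% counting intervals and 1 library per group; open triangles mark 0 counts and are drawn at the level of 3 counts. Glyma07g39820 and Glyma17g00950 reach 285 and 457 CPM at early maturation and lie under 0.4 CPM in dry seed, whereas the ABI3 homologs keep 243 and 801 CPM there.

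Transcripts of the LEC1 homologs built up from the globular stage to early maturation and were nearly gone from the dry seed. Glyma07g39820 had 0.702 CPM in globular, 12.3 in heart, 43.0 in cotyledon and 285 in early-maturation seed, and 0.236 CPM, or 3 counts, in dry seed. Glyma17g00950 had 0.221, 9.0, 52.8 and 457 CPM in the same order, and 0.393 CPM, or 5 counts, in dry seed. Both copies were highest at early maturation, and every step up to that peak exceeded counting error. Outside the seed Glyma07g39820 had 1 count each in seedling and leaf and 0 in root, stem and floral bud, where 3 counts equal 0.0733 to 0.283 CPM. Glyma17g00950 had 2 counts in root, 1 each in seedling and floral bud and 0 in leaf and stem. The levels outside the seed could not be ranked at this depth.

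Transcripts of the ABI3 homologs also built up to early maturation but stayed high in the dry seed. Glyma08g47240 had 0.762, 19.3, 108 and 292 CPM from globular to early-maturation seed and 243 CPM in dry seed. Glyma18g38490 had 0.281, 12.8, 59.6 and 175 CPM and then 801 CPM in dry seed, its highest value. So the copies of this pair peaked in different libraries of the 10. Early maturation and dry seed differed by 1.20-fold (1.15 to 1.25) for Glyma08g47240, which is beyond counting error but well within the 4-fold used for calls here.

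Outside the seed the ABI3 homologs were low but detected. Glyma08g47240 had 18 counts in floral bud and 8 in seedling, and 0 in leaf, root and stem. Glyma18g38490 had 12 counts in floral bud, 6 in seedling, 1 in root and 0 in leaf and stem. In floral bud these are 0.440 and 0.293 CPM, which differed from the globular seed by less than counting error for both copies. The ratio of globular seed to floral bud was 1.73 (0.965 to 3.23) for Glyma08g47240.

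The FUS3 homologs were the least abundant members. Glyma16g05480 had 3 counts (0.0602 CPM) in globular seed, 1.67 CPM in heart, 7.73 in cotyledon and 18.4 in early-maturation seed, and 5 counts (0.393 CPM) in dry seed. Glyma19g27340 had 4 counts (0.0803 CPM) in globular seed, 1.38 CPM in heart, 4.02 in cotyledon and 3.86 in early-maturation seed, and 2 counts in dry seed. Glyma16g05480 thus continued upward to early maturation, while its partner stood at the same level as in cotyledon seed, with a cotyledon over early-maturation ratio of 1.04 (0.806 to 1.35). Neither had more than 1 count in any library outside the seed.

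The members' peaks can be read against all genes. Of 36414 genes with a mean of at least 1 CPM over the 10 count libraries, 7.94% were highest at early maturation, 25.5% in dry seed and 2.52% at the cotyledon stage. Of the 6 members, 4 were highest at early maturation (both LEC1 homologs, Glyma08g47240 and Glyma16g05480), 1 in dry seed (Glyma18g38490) and 1 at the cotyledon stage (Glyma19g27340, not separable from early maturation, and with a mean below that minimum).

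A change was called where the CPM of a gene differed 4-fold or more between 2 libraries and reached 10 in the higher one, counting any value below 3 counts as 3. From globular to heart seed 3 of the 6 members were called higher, against 1.42% of 31679 measured genes, those with a mean of at least 1 CPM in the libraries compared. None was called lower, as were 0.808% of genes, but with at most 0.762 CPM in globular seed no lower call was open to the 6. Both FUS3 homologs lay under that mean, at 1.67 and 1.38 CPM in heart, and Glyma17g00950 under the minimum of 10 CPM. The ratios of the FUS3 homologs rest on few globular counts: 27.8 (8.86 to 141) for Glyma16g05480 and 17.2 (6.12 to 66.9) for Glyma19g27340. The median log2 ratio over all 6 members was 4.73, and over all measured genes -0.06.

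The globular library held traces of late seed transcripts that bear on these ratios. Across 29 genes above 200 CPM at early maturation and at or under 0.5 CPM in heart, it had a median of 7.13 CPM for each 10000 CPM of the early-maturation library. That share of the early-maturation level equals 125% of the globular level of Glyma17g00950, 37.6% for Glyma18g38490, 24.5% for Glyma07g39820, 23.1% for Glyma08g47240, 18.5% for Glyma16g05480 and 2.90% for Glyma19g27340. With that share taken off the globular counts, Glyma17g00950 was left with 0 of its 11 counts and Glyma07g39820 with 26 of 35. The count of members called higher stayed at 3, while the log2 ratio of Glyma17g00950, with the floor of 3 counts, went from 5.35 to 7.22. Whether these traces came from later seed or from the globular seed itself was not tested.

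From heart to cotyledon seed 3 of 6 members were called higher, against 0.547% of 31786 measured genes: Glyma17g00950 and both ABI3 homologs. None was called lower (0.116% of genes). The FUS3 homolog Glyma16g05480 had a ratio of 4.62 (3.28 to 6.64) but stayed under 10 CPM, and its partner a ratio of 2.91 (1.96 to 4.43). The median log2 ratio over the 6 members was 2.21, and -0.05 over all measured genes. From cotyledon seed to early maturation 2 of 6 were called higher, both LEC1 homologs, against 1.91% of 32326 genes, and none lower (1.44%). The other ratios in this step were 2.70 and 2.94 for the ABI3 homologs, 2.38 (2.04 to 2.79) for Glyma16g05480 and 0.958 (0.742 to 1.24) for Glyma19g27340. In this step the ratios of the LEC1 homologs were 6.63 and 8.66, while from globular to heart they were 17.6 and 40.8.

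The members differed in how much of their early-maturation level they had reached before. At the cotyledon stage the LEC1 homologs stood at 15.1% (14.2 to 16) for Glyma07g39820 and 11.6% (10.9 to 12.2) for Glyma17g00950. The ABI3 homologs stood at 37.1% (35.6 to 38.6) and 34.1% (32.3 to 36.0). The FUS3 homologs stood at 41.9% (35.8 to 49.0) for Glyma16g05480 and 104% (80.6 to 135) for Glyma19g27340. With early maturation as the base, the order of the pairs, FUS3 and ABI3 ahead of LEC1, was the same in heart seed, where the values ran from 1.97% for Glyma17g00950 and 4.33% for Glyma07g39820 over 6.61% and 7.32% for the ABI3 homologs to 9.08% and 35.8% for the FUS3 homologs. A scaling factor between libraries multiplies all 6 values alike and leaves this order as it is. The order depends on the base: Glyma18g38490, highest in dry seed, had 7.44% of its own highest level in cotyledon and 1.60% in heart seed, behind both LEC1 homologs. The intervals of Glyma16g05480 and both ABI3 homologs overlap in heart and in cotyledon seed, so these neighbours could not be separated.

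**Figure D2:**
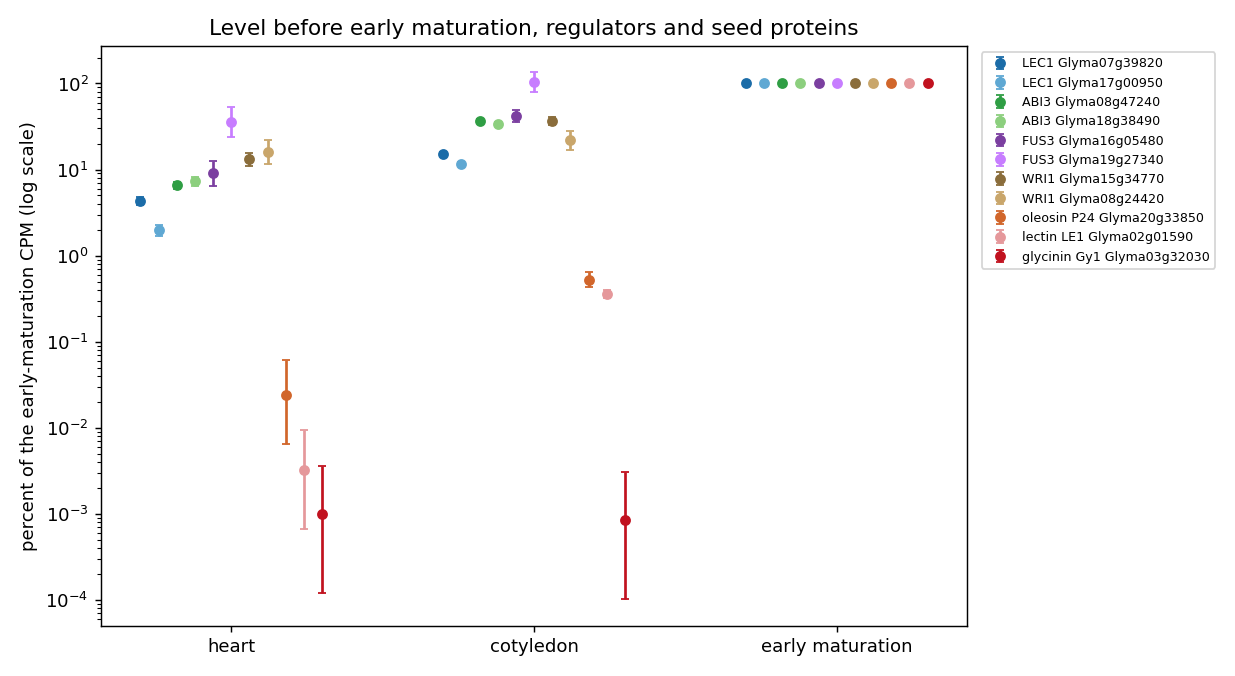
Level in heart and cotyledon seed as a percentage of the early-maturation CPM of the same gene, on a log axis, with exact 95% counting intervals; early maturation is 100 for each gene. At the cotyledon stage the 6 regulators lie between 11.6 and 104%, the WRI1 genes at 21.9 and 36.8%, and oleosin P24, lectin LE1 and glycinin Gy1 under 1%. The DGAT1 genes, at 58.2 and 127%, are not drawn.

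Genes that stand downstream of these regulators in Arabidopsis, or that store protein and oil, were set beside them from a list of 17 loci. WRINKLED1 (WRI1) is a transcription factor that turns on fatty acid synthesis. Its homologs Glyma15g34770 and Glyma08g24420 had 36.8% (33.1 to 40.8) and 21.9% (16.8 to 28.2) of their early-maturation level at the cotyledon stage, within the range of the regulators. The seed lectin LE1 (Glyma02g01590) had 0.358% (0.323 to 0.395), oleosin P24 (Glyma20g33850), which coats oil bodies, 0.526% (0.429 to 0.637), and the glycinin Gy1 (Glyma03g32030), a major storage protein, 0.000842%, or 2 counts. So the regulators and WRI1 had 11.6% or more of their early-maturation level in a library in which these seed protein genes had less than 1% of theirs. Other genes of the list went the other way: the oil synthesis genes Glyma13g16560 and Glyma17g06120 (DGAT1) stood at 58.2% (48.7 to 69.2) and 127% (97.6 to 164) at the cotyledon stage. Some seed protein genes had begun to rise by then. From heart to cotyledon seed LE1 went from 0.126 to 13.9 CPM and the storage protein gene Glyma10g39150 from 1.42 to 19.1 CPM. Both were called higher, as were 0.547% of all measured genes.

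Of the 10 storage protein genes in that list 7 were measured and 7 called higher from cotyledon to early maturation, against 1.91% of all measured genes. Except for Glyma10g39150, the genes called higher had at most 0.318 CPM in cotyledon seed. Those were measured only through early maturation, so no lower call was open to them. From dry seed to seedling 8 were measured and 8 called lower, against 13% of genes. Glyma13g18450, Glyma19g34780, Glyma20g28640 and Glyma20g28460 had at most 1.55 CPM in seedling and were measured only through dry seed. Of the 4 oil genes, 1 was called higher from cotyledon to early maturation, Glyma08g24420, which went from 2.51 to 11.5 CPM. With plain CPM 0 were called. The WRI1 homologs had 44.2 and 11.5 CPM at early maturation, and 5 and 0 counts in dry seed. The acyltransferase genes DGAT1, which make the final step of oil synthesis, were highest in dry seed at 22.1 CPM (Glyma13g16560) and 36.2 CPM (Glyma17g06120). In globular seed they stood at 6.88 and 7.38 CPM, so they did not share the steep early increase of the regulators.

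Between early maturation and dry seed the members parted. Both LEC1 homologs and Glyma16g05480 were called lower, 3 of 6 against 17.9% of 32161 measured genes, and Glyma18g38490 was called higher, 1 of 6 against 13.7%. Glyma16g05480 fell from 18.4 to 0.393 CPM, 46.8-fold (19.97 to 145). The LEC1 homologs fell 1209-fold (414 to 5866) for Glyma07g39820 and 1162-fold (498 to 3580) for Glyma17g00950. Glyma19g27340 had 24.5 times less in dry seed (6.65 to 204) but never reached 10 CPM. The call of Glyma18g38490 was lost with plain CPM, which divides by total counts, where its log2 ratio was 1.55 against 2.19. Relative to TMM, plain CPM shifts every log2 ratio by -0.64 in this step, by -0.28 from cotyledon to early maturation and by 0.82 from dry seed to seedling.

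In the seedling 2 of 6 members were called lower than in dry seed, both ABI3 homologs, against 13% of 33740 measured genes. Both were measured only through dry seed, so the higher call, made for 18.2% of genes, was not open to them. Glyma18g38490 went from 801 CPM to 6 counts (0.309 CPM) and Glyma08g47240 from 243 CPM to 8 counts (0.412 CPM). The LEC1 and FUS3 homologs had at most 5 counts in either library, lay under the mean for measured genes and could not be called. Glyma16g05480 had 5 in dry seed and 0 in seedling, 2.54-fold lower with the seedling set at the floor of 3 counts, and was not called. The counting interval of its seedling over dry-seed ratio reached up to 0.715. Across organs, the highest seed value was at least 4 times the highest value outside the seed, and at least 10 CPM, for 5 of 6 members, against 9.32% of 36414 genes. The exception was Glyma19g27340, whose highest seed value of 4.02 CPM was under the minimum. The reverse held for none of the members and for 13.2% of genes. With at most 0.440 CPM outside the seed, no member could reach the minimum for that reverse call. The ratio of the highest seed value to the highest other value was 664 (420 to 1120) for Glyma08g47240 and 2589 (1189 to 7057) for Glyma18g38490, whose highest other value was in seedling. The latter rests on the dry library: without it the log2 ratio of Glyma18g38490, with the floor of 3 counts, went from 11.34 to 9.14, below the 9.37 of Glyma08g47240.

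The share of a pair held by one copy was then compared between libraries, since it does not depend on scaling between libraries. Reads were aligned at 76 bases, and how reads that match both copies were handled is not given in the sources used here, so a share may hold reads of the other copy. For LEC1, Glyma07g39820 held 76.1% of the pair's counts in globular seed (61.2 to 87.4), 57.8% in heart (53.4 to 62.2), 44.9% in cotyledon (43.0 to 46.8) and 38.4% in early-maturation seed (37.8 to 39.0). The majority passed from Glyma07g39820 to Glyma17g00950 between heart and cotyledon stage. The odds of a count coming from Glyma07g39820 fell in each step, 2.32-fold (1.12 to 5.17), 1.68-fold (1.38 to 2.05) and 1.30-fold (1.20 to 1.41). The globular value rests on 46 counts, 11 of them from Glyma17g00950, all of which the share of early-maturation transcripts described above would cover. The first of these 3 steps is therefore uncertain. In dry seed the pair had 8 counts, too few for a share.

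For ABI3, Glyma08g47240 held 73.1% of the counts in globular (59.0 to 84.4), 60.1% in heart (56.5 to 63.6), 64.5% in cotyledon (63.1 to 65.9) and 62.5% in early-maturation seed (61.8 to 63.3). In dry seed it held 23.3% (22.6 to 24.03). Up to early maturation the share of counts thus stayed between 60.1 and 73.1%, and the odds then dropped 5.49-fold (5.22 to 5.78). Which copy held the majority depends on gene length: per smallest recovered length Glyma08g47240 held 43.0% in heart, 47.6% in cotyledon and 45.5% in early-maturation seed. In floral bud it held 18 of 30 counts (40.6 to 77.3%) and in seedling 8 of 14 (28.9 to 82.3%), so the seedling interval lies above the dry-seed one.

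For FUS3, Glyma16g05480 held 3 of 7 counts in globular seed, 54.8% in heart (42.7 to 66.5), 65.8% in cotyledon (60.4 to 70.9) and 82.7% in early-maturation seed (79.9 to 85.3). The odds rose 2.49-fold (1.84 to 3.37) from cotyledon to early maturation, and by 1.58 (0.914 to 2.73) in the step before, where the interval includes 1. All 3 pairs therefore changed in composition during seed development. For ABI3 the odds also moved before dry seed, by 1.21 (1.03 to 1.41) from heart to cotyledon and by 0.918 (0.858 to 0.983) from there to early maturation, far less than between early maturation and dry seed.

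**Figure D3:**
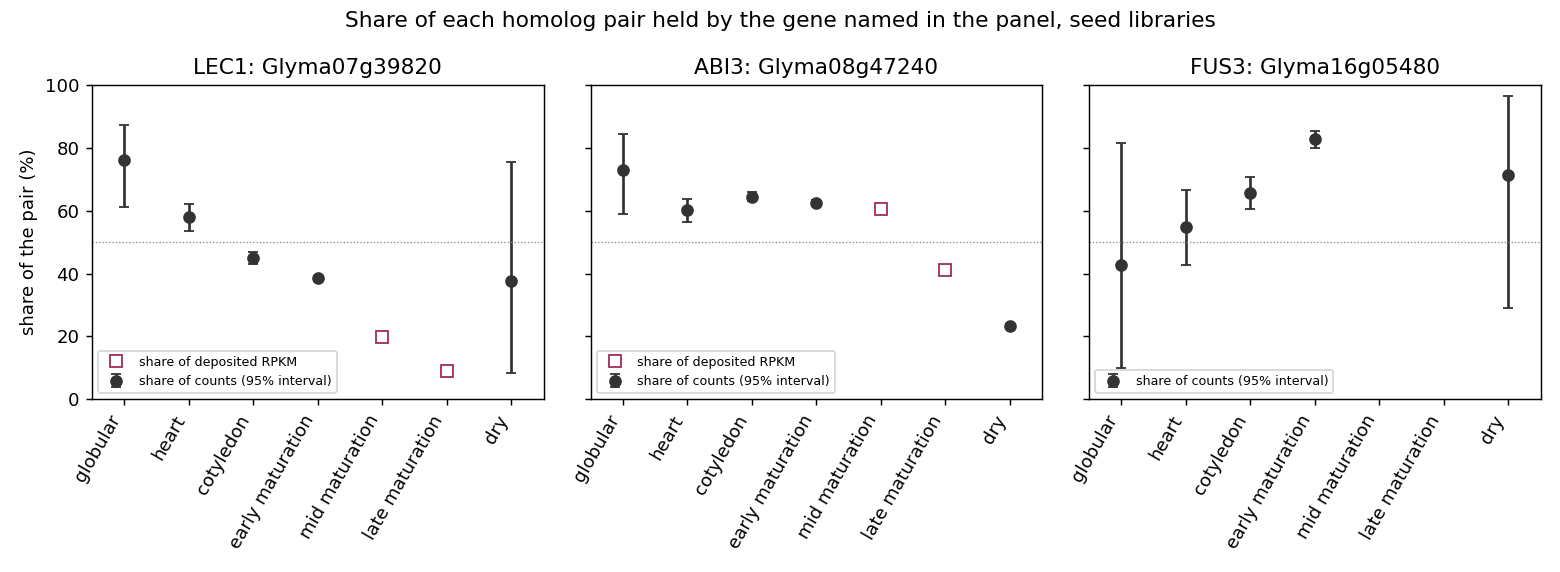
Share of each pair held by the gene named above the panel, in percent, in the seed libraries; filled points are shares of counts with exact 95% intervals, open squares are shares of deposited RPKM, which are per length and cannot be set against the filled points as levels. Glyma07g39820 goes from 76.1 to 38.4% by early maturation, Glyma08g47240 drops to 23.3% in dry seed, and Glyma16g05480 reaches 82.7%.

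The mid- and late-maturation libraries, which share a batch and a unit, showed the later part of the course. Their depth, recovered from the steps in the deposited values, was 59542387 and 103601188 reads. Glyma07g39820 had 16.3 RPKM at mid and 0.122 RPKM at late maturation, a 134-fold fall (82.2 to 235), and Glyma17g00950 had 65.5 and 1.23 RPKM, a 53.1-fold fall (35.1 to 84.3). These were the 2 members called lower, out of 5 listed and against 7.35% of 26234 measured genes, at 4-fold on log2(RPKM + 0.5) and at least 5 RPKM. The FUS3 homolog Glyma16g05480 had 4.90 and 1.73 RPKM, a ratio of 2.84 (2.45 to 3.29). The LEC1 homologs dropped far more in this step than the FUS3 homolog, and their counting intervals do not touch its interval. Of the 10 storage protein genes, which summed to 26175 CPM in dry seed, 8 were measured at mid and late maturation. All 8 were called lower at late maturation, with Gy1 (Glyma03g32030) going from 27614 to 658 RPKM.

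Both ABI3 homologs were still abundant in these libraries. Glyma08g47240 had 146 RPKM at mid and 117 RPKM at late maturation, and Glyma18g38490 had 95.2 and 167 RPKM. The copies moved in opposite directions on the deposited scale, and neither was called (10.9% of genes were called higher at late maturation). Glyma08g47240 held 60.6% of the pair's RPKM at mid and 41.2% at late maturation, and its odds dropped 2.20-fold (2.13 to 2.26). So the change in the ABI3 pair towards Glyma18g38490 was seen within that batch as well as between early maturation and dry seed. For LEC1, Glyma07g39820 held 19.9% of the RPKM at mid and 8.97% at late maturation, with odds 2.52-fold lower (1.27 to 5.14), the late value resting on 16 reads for Glyma07g39820.

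RPKM allows levels of different genes to be compared. At mid maturation the order was Glyma08g47240, Glyma18g38490, Glyma17g00950, Glyma07g39820 and Glyma16g05480, and no neighbours overlapped in their counting intervals. At late maturation the order was Glyma18g38490, Glyma08g47240, Glyma16g05480, Glyma17g00950 and Glyma07g39820. There Glyma16g05480 (1.54 to 1.94) and Glyma17g00950 (0.782 to 1.85) did overlap. The FUS3 homolog, lowest of the 5 at mid maturation, thus stood above Glyma07g39820 at late maturation.

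To set these libraries beside the count libraries, RPKM was computed from counts with gene lengths recovered from the deposited values. A recovered length is the smallest that fits and may be too small by a whole factor. It was 1271 nt for Glyma07g39820, 2947 nt for Glyma08g47240 and 1654 nt for Glyma16g05480. For Glyma18g38490 it was 1474 nt, and the next fitting length, 2948 nt, lies 1 nt from the length of its partner, so both were used. For Glyma17g00950 lengths could be told only as multiples of 180 nt, so no RPKM computed from its counts is given.

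Stage and batch cannot be told apart between the count libraries and these. The shares and the median over all genes given here also use the smallest fitting length of each gene. A length that is too small raises the RPKM computed from counts. It moves a gene towards lower at mid maturation and towards higher in dry seed. Glyma07g39820 stood at 207 RPKM at early maturation and 16.3 at mid maturation, called lower, as were 18.3% of 25781 measured genes. No member was called higher there (0.787% of genes). Glyma17g00950 would also be lower at mid maturation for any gene model shorter than 6444 nt. Glyma16g05480 stood at 10.3 and 4.90 RPKM, a log2 ratio of -0.997 on the log2(RPKM + 0.5) scale, close to the median of all genes in that step (-1.13). The ABI3 homolog Glyma08g47240 stood at 91.5, 146, 117 and 48.8 RPKM from early maturation to dry seed, so over 12 libraries its highest value was at mid maturation. Between late maturation and dry seed none of the 4 members with a length was called, against 8.18% of 19986 genes higher and 2.72% lower in dry seed. Glyma07g39820 (0.122 and 0.110 RPKM) and Glyma16g05480 (1.73 and 0.141 RPKM) lay under the minimum of 5 RPKM in both libraries. Neither could therefore be called, though Glyma16g05480 was 12.3 times lower in dry seed. Glyma18g38490 stood at 95.2 and 167 RPKM at mid and late maturation and at 321 RPKM in dry seed with the shorter length or 161 RPKM with the longer one. Its peak is therefore in dry seed or at late maturation, depending on the length.

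**Figure D4:**
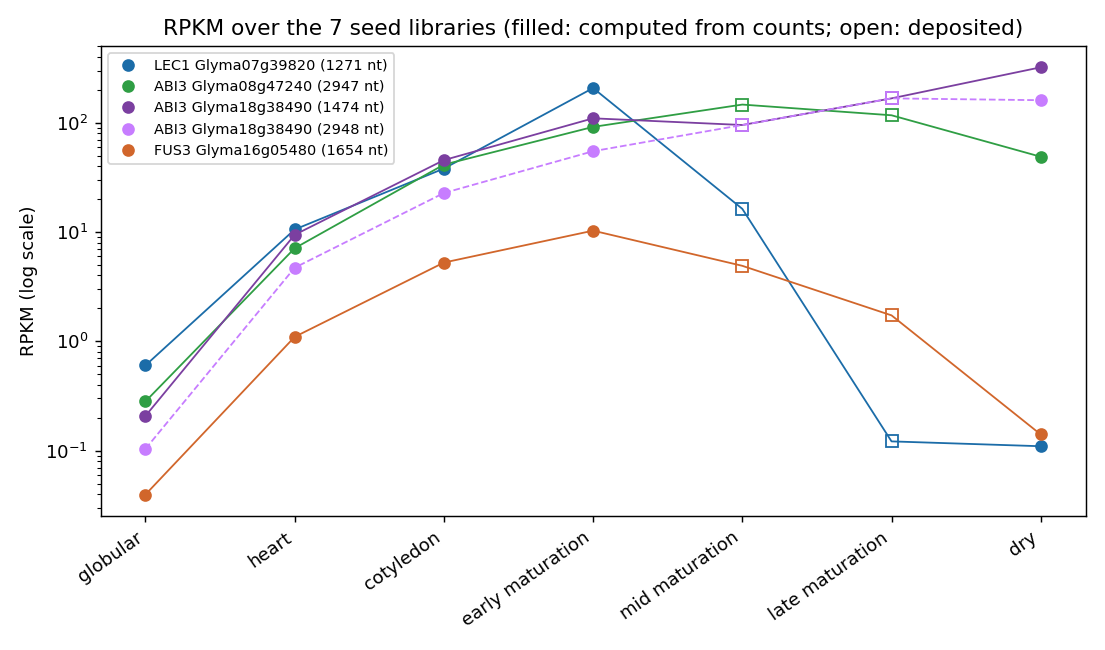
RPKM of the members with a recovered length over the 7 seed libraries, on a log axis; filled points were computed from counts, open squares are deposited values of the separate batch, and the dashed line uses 2948 nt for Glyma18g38490. Glyma07g39820 and Glyma16g05480 are highest at early maturation (207 and 10.3 RPKM), Glyma08g47240 at mid maturation (146 RPKM) and Glyma18g38490 at late maturation or in dry seed.

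Ratios between members within a library are free of the scaling between libraries. Per length, Glyma07g39820 (LEC1) stood at 2.14 times Glyma08g47240 (ABI3) in globular seed (1.31 to 3.47), 1.48 in heart (1.28 to 1.72), 0.921 in cotyledon (0.861 to 0.984) and 2.27 in early-maturation seed (2.20 to 2.33). The ratio was 0.111 at mid maturation (0.105 to 0.118) and 0.00104 at late maturation (0.000594 to 0.00169). Per recovered length this LEC1 homolog thus stood above the ABI3 homolog at early maturation, where their counts were 10068 and 10300. At mid maturation it was 9.0-fold lower (8.49 to 9.53). The ratio of Glyma16g05480 (FUS3) to the same ABI3 homolog stayed between 0.112 and 0.155 up to early maturation, with overlapping intervals for neighbouring stages. It was 0.0335 (0.0306 to 0.0367) at mid and 0.0148 (0.0131 to 0.0166) at late maturation, and 0.00288 (0.000935 to 0.00673) in dry seed. The ratios at mid and late maturation are ratios of deposited RPKM and use no recovered length. If a length came out too small, the count-library ratios would change by 1 common factor. That would shift them against those of mid and late maturation and could carry them past 1.

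**Figure D5:**
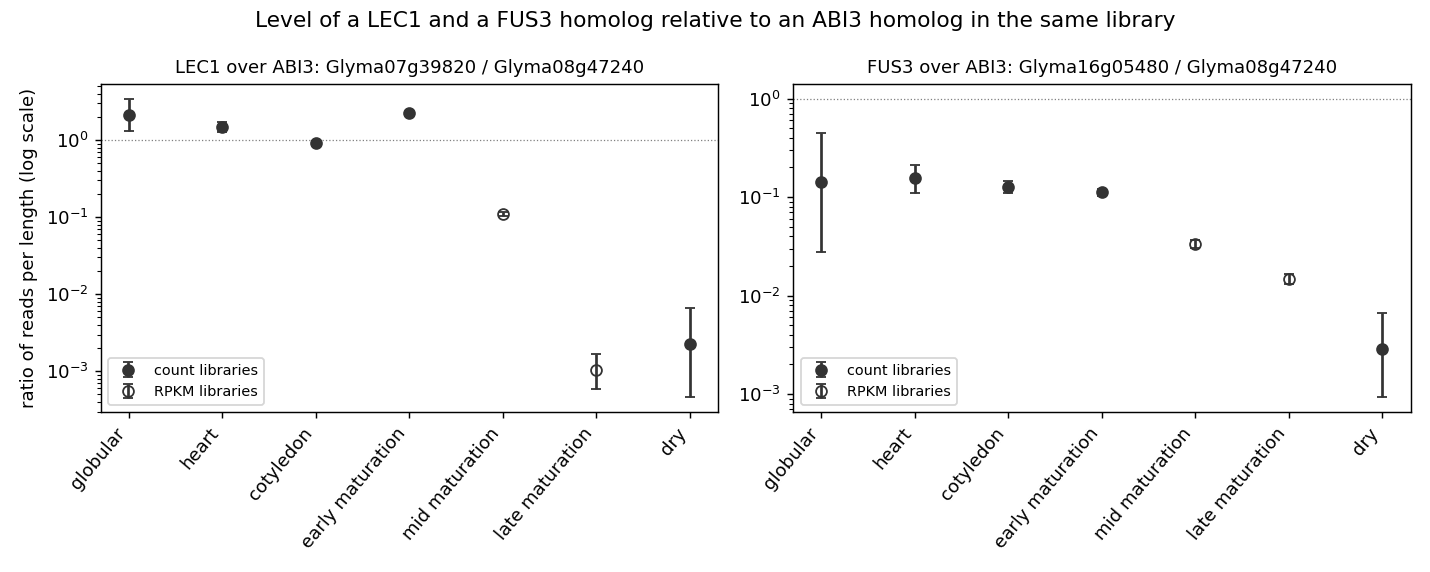
Ratio of reads per length of Glyma07g39820 (LEC1, left) and Glyma16g05480 (FUS3, right) to Glyma08g47240 (ABI3) in the same seed library, on log axes, with exact 95% counting intervals; open points are the separate batch. The LEC1 ratio lies between 0.921 and 2.27 up to early maturation and at 0.00104 at late maturation, while the FUS3 ratio goes from 0.112 to 0.0148 over the same span.

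Taking the libraries in order, the FUS3 homolog Glyma19g27340 reached its highest CPM at the cotyledon stage, level with early maturation, the LEC1 homologs and Glyma16g05480 at early maturation, Glyma08g47240 at early maturation by CPM and at mid maturation by RPKM, and Glyma18g38490 last. The likeness of profiles was measured as Pearson's r of log2(CPM + 1) over the 10 count libraries, most of which hold these genes at or near 0. It is given as a description. The partner of Glyma07g39820 ranked 4 of 29549 genes (r = 0.996), that of Glyma08g47240 also 4 (r = 0.981), and that of Glyma16g05480 44 (r = 0.974). The genes most like the LEC1 pair were Glyma12g10390 and Glyma08g31220 (r = 0.998 for each). Those most like the ABI3 pair were Glyma17g37350 and Glyma02g43240 (both 0.983), and those most like the FUS3 pair Glyma02g47030 (0.996) and Glyma02g04910 (0.995). The files give no names for these 6 identifiers.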

How the data were processed

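For 10 libraries the authors deposited raw counts of reads mapped to each gene model, per the file headers, and for mid and late maturation RPKM of genes above 0. Bowtie was used for all libraries and bedtools for the RPKM libraries, per the submitters' processing notes. The sources used here name neither versions nor a build, nor what was done with reads that fit more than 1 place. The RPKM files held 8414 gene models with identifiers ending in a digit other than 0, which the count files did not use. Counts were scaled with TMM factors (edgeR 4.0.16 in R 4.3.3; alternatives were total counts and DESeq2 1.42.0 size factors). Intervals are exact: Poisson for levels, Clopper-Pearson for shares, conditional binomial for ratios and noncentral hypergeometric for odds. Amplified reads are not independent molecules, so they cover counting error only. A count of 0 was read against a floor of 3 counts. RPKM was compared as log2(RPKM + 0.5), which understates changes of low genes. The depth of the RPKM libraries and gene lengths were found as the whole numbers that turn deposited values into whole reads. Calls and lengths were tested on simulated data. Intervals of RPKM values use the fewest reads that fit. The members and lists were chosen with earlier results of these data known, by published locus identifiers. Named genes are the members, examples from the list, and the 2 genes most like each pair. No seed coat or endosperm marker list was used. Intervals were computed with scipy 1.17.1 under Python 3.11.15.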

Additional observations from a re-analysis of the deposited data

How the results depend on the processing

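With 1 library per group no spread between plants exists, no library could be left out of a step, and no paired analysis was possible because no group has a second library. Low counts limit the FUS3 homologs and every member outside the seed. The peak of Glyma08g47240 at early maturation was overtaken by mid maturation on RPKM over 12 libraries (log2 of the peak over the highest other library -0.68, or -1.81 with mid and late maturation rescaled by the median ratio). That of Glyma16g05480 was overtaken after rescaling (-0.064), and that of Glyma18g38490 in dry seed by late maturation at 2 times its smallest length (-0.056), a setting chosen after seeing the data. The median ratios used for rescaling rest on the smallest fitting lengths as well. The RPKM settings were not run for Glyma17g00950 and Glyma19g27340, which have no usable length. Per smallest recovered length the ABI3 share of Glyma08g47240 ran 57.6, 43.0, 47.6, 45.5 and 13.2% over globular, heart, cotyledon, early-maturation and dry seed, because that length is shorter for Glyma18g38490. Per-length shares of LEC1 and FUS3 were not run. From globular to heart 6 members were called with a minimum of 1 CPM and 0 with 50 CPM. At a 2-fold threshold 5 were called higher from cotyledon to early maturation and 1 was called lower in dry than in late-maturation seed, where 0 were called at 4-fold. Plain CPM left 0 called higher from early maturation to dry seed. The other counts of called members stayed within 1.5 times under the settings tried.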

Other observations

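The mid- and late-maturation libraries list an identifier, Glyma19g27336, that the count libraries lack and that lies next in number to the FUS3 homolog Glyma19g27340, which they do not list. It had 4.65 RPKM at mid maturation (4.27 to 5.07) and 0.957 RPKM at late maturation (0.826 to 1.10). Whether it covers the same locus was not tested, and its values were not used for the FUS3 pair.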
